A study of Mus musculus with 6 samples.

Results

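The BCL2 family genes described here are 9 regulators of mitochondrial cell death, taken by Ensembl gene identifier from a list. The list was set by gene function and not by measured values, but with earlier results of these data known. The prosurvival genes are Bcl2 (ENSMUSG00000057329), Bcl2l1 (ENSMUSG00000007659) and Mcl1 (ENSMUSG00000038612). The effectors are Bax (ENSMUSG00000003873) and Bak1 (ENSMUSG00000057789). The BH3-only genes are Bid (ENSMUSG00000004446), Bcl2l11 (ENSMUSG00000027381), Bbc3 (ENSMUSG00000002083) and Pmaip1 (ENSMUSG00000024521). All 9 had a row among the 23770 genes of the deposited gene table. Levels were measured in mouse MLL-AF9 acute myeloid leukaemia cells of the C57BL/6 background, enriched for leukaemia stem cells, the fraction that propagates the disease. The tested cells carried a knockdown of Kdm1a, a histone demethylase of repressor complexes (Kdm1a KD, 3 arrays), and were compared with control cells (3 arrays). All cells carried MLL-AF9, a fusion oncoprotein, and the growth protocol describes infecting thawed cells with virus. The labels name neither the construct nor what the control cells received. The 3 samples of a group come from 2 animals by the series' design text. At least 2 arrays of a group then share an animal, so the arrays of a group are not independent. P-values over arrays treat them as independent wherever they are given. They can be too small and do not measure the spread between animals.

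BCL2 family proteins decide whether the outer mitochondrial membrane stays intact. BAX and BAK form pores in it that release cytochrome c and set off caspases. BCL2, BCL-XL (the product of Bcl2l1) and MCL1 hold the effectors in check, and the BH3-only proteins BID, BIM (Bcl2l11), PUMA (Bbc3) and NOXA (Pmaip1) relieve that check or activate the effectors. Acute myeloid leukaemia cells often depend on BCL2 or MCL1 for survival. Much of this control acts on the proteins, by cleavage, phosphorylation and degradation, which RNA levels do not report.

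The array medians lay between 5.12 and 5.26 on the log2 scale. The targeted gene was read from a second deposited table of single array features, in which 23 features carried its older symbol. The median of these Kdm1a features was 6.30, 6.15 and 6.15 on the KD arrays, against 8.61, 8.94 and 8.74 on the control arrays. Kdm1a was thus 5.91-fold lower in Kdm1a KD (log2 difference -2.56, SE 0.18, limma adjusted p = 0.00363). It was the only gene called among the 18916 named genes of that table by limma on feature medians, where 5.05% had an unadjusted p under 0.05. By median polish of the features limma called 0.0106% of the named genes and 0 of the family. Kdm1a then had a smaller log2 difference, -2.03 (limma adjusted p = 0.00468). The 2 arrays numbered 1, KD replicate 1 and control replicate 1, stood apart from the other 4 in the whole table. Both of them lay above or below all of the other 4 in 28.0% of all rows. No label says what the shared number stands for. For the family genes set apart on these arrays, the log2 differences are given with and without them.

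None of the 9 genes changed with the Kdm1a knockdown in limma at an adjusted p of 0.05, where 0.00421% of all rows did. At an unadjusted p under 0.05, limma likewise called 0 of the 9, against 5.28% of all rows. The adjusted p ran from 0.932 to 0.997. Values were higher in Kdm1a KD for 6 genes and lower for 3, with a median log2 difference of 0.03 over the 9, against -0.02 over all rows. Bbc3 was the single gene whose 3 KD arrays all lay above the 3 control arrays. That is 11.1% of the 9, where the groups did not overlap in 10.6% of all rows (4.50% with Kdm1a KD above and 6.07% with Kdm1a KD below). Without both arrays numbered 1 the groups did not overlap in 5 genes, against 41.8% of all rows. The count was 3 genes without KD replicate 1 (22.1% of all rows), 3 without control replicate 1 (29.5%) and 2 without control replicate 2 (16.6%). It was 1 without KD replicate 2 (15.9%), KD replicate 3 (24.8%) or control replicate 3 (16.7%).

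**Figure D1:**
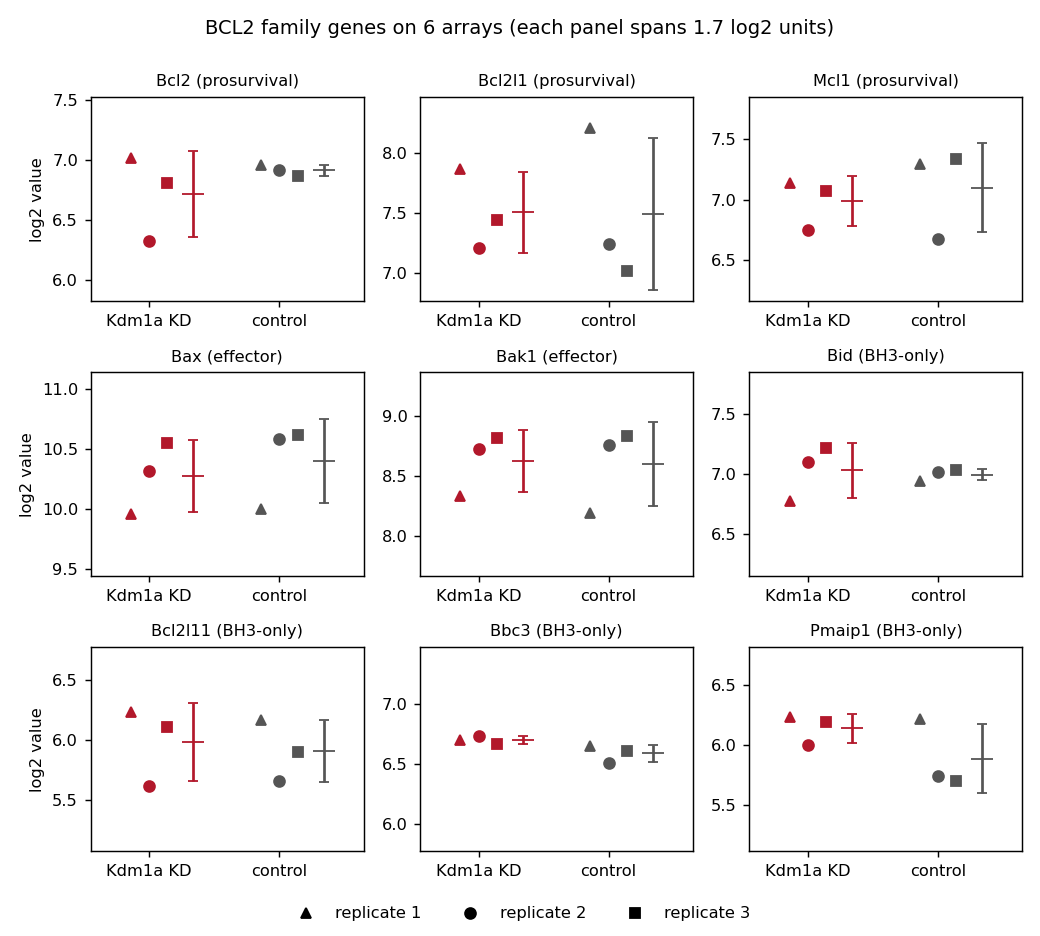
Log2 value of each BCL2 family gene on the 3 Kdm1a KD arrays (red, left) and the 3 control arrays (grey, right), with the mean and SD of each group and replicate numbers by symbol. Every panel spans the same number of log2 units, and the groups overlap in all genes except Bbc3, where the KD arrays lie at 6.66 to 6.73 and the control arrays at 6.51 to 6.65.

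Among the prosurvival genes, Bcl2 had log2 values of 7.02, 6.33 and 6.81 on the KD arrays, against 6.96, 6.92 and 6.87 on the control arrays. KD replicate 2 was low, while KD replicate 1 lay above every control array. The mean was 6.72 ± 0.36 in Kdm1a KD and 6.91 ± 0.04 in control (SD, n = 3 each), a log2 difference of -0.19 (SE 0.19, limma adjusted p = 0.94). Without KD replicate 2 the log2 difference was 0.0013 (limma adjusted p = 0.9999). With both arrays numbered 1 left out, it was -0.32 (limma adjusted p = 0.692).

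Bcl2l1 had values of 7.87, 7.21 and 7.45 on the KD arrays, against 8.21, 7.24 and 7.02 on the control arrays. The highest value of each group came from the array numbered 1, and the groups overlapped throughout. The log2 difference was 0.01 (SE 0.33, limma adjusted p = 0.997), and its 95% interval allowed anything from 0.594-fold to 1.72-fold of control. Without the arrays numbered 1 it was 0.20 (limma adjusted p = 0.766), and without control replicate 1 alone 0.38, again short of the threshold (limma adjusted p = 0.621).

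Mcl1, whose protein is short-lived, had values of 7.14, 6.75 and 7.07 on the KD arrays, against 7.29, 6.67 and 7.34 on the control arrays. Replicate 2 was the lowest array in each group. The log2 difference was -0.11 (SE 0.21, limma adjusted p = 0.966), with an interval of 0.653-fold to 1.31-fold of control.

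Neither Bax nor Bak1, the pore-forming effectors, passed the test, and their groups overlapped. Bax had values of 9.96, 10.32 and 10.55 on the KD arrays, against 9.996, 10.58 and 10.62 on the control arrays. Its log2 difference was -0.12 (SE 0.23, limma adjusted p = 0.966). Bak1 had values of 8.33, 8.72 and 8.82 on the KD arrays, against 8.19, 8.76 and 8.83 on the control arrays. Its log2 difference was 0.03 (SE 0.22, limma adjusted p = 0.992). In both genes the array numbered 1 was the lowest of its group by a clear margin. The intervals ran from 0.637-fold to 1.33-fold of control for Bax and from 0.717-fold to 1.45-fold for Bak1. With both arrays numbered 1 left out, the log2 difference was -0.16 for Bax and -0.03 for Bak1 (limma adjusted p = 0.790 and 0.965).

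Bbc3 is the BH3-only gene that encodes PUMA, which binds all of the prosurvival proteins. Its values were 6.70, 6.73 and 6.66 on the KD arrays, against 6.65, 6.51 and 6.61 on the control arrays. The mean was 6.70 ± 0.03 in Kdm1a KD and 6.59 ± 0.07 in control (SD, n = 3 each). The log2 difference of 0.11 (SE 0.12) corresponds to 1.08-fold of control with an interval from 0.893-fold to 1.30-fold (limma adjusted p = 0.941). The exact two-sided permutation p was 0.1, the smallest that 3 against 3 arrays can give. The second table did not show this difference, as described with the features.

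Pmaip1, which encodes NOXA, an antagonist chiefly of MCL1, had the largest positive difference of the 9. Its values were 6.23, 6.01 and 6.19 on the KD arrays, against 6.22, 5.75 and 5.70 on the control arrays. All KD arrays lay above control replicates 2 and 3, but control replicate 1 was level with the highest KD array. The log2 difference was 0.25 (SE 0.17, limma adjusted p = 0.932, exact two-sided permutation p = 0.3). Without the arrays numbered 1 it was 0.38 (limma adjusted p = 0.596), and without control replicate 1 alone 0.42 (limma adjusted p = 0.516). The second table gave less, 0.05 by the median of features and 0.06 by median polish (limma adjusted p = 0.991 and 0.973).

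Bid and Bcl2l11 showed no difference beyond the spread between arrays. BID links death receptors to mitochondria after cleavage by caspase 8, and BIM responds to growth factor withdrawal. Bid had values of 6.77, 7.09 and 7.21 on the KD arrays, against 6.94, 7.01 and 7.03 on the control arrays. The KD arrays spread to both sides of the control arrays, and the log2 difference was 0.04 (SE 0.15, limma adjusted p = 0.985). Bcl2l11 had values of 6.23, 5.61 and 6.10 on the KD arrays, against 6.17, 5.66 and 5.90 on the control arrays. Its difference was 0.07 (SE 0.21, limma adjusted p = 0.98). With both arrays numbered 1 left out, the log2 difference was 0.13 for Bid and 0.08 for Bcl2l11 (limma adjusted p = 0.814 and 0.926).

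**Figure D2:**
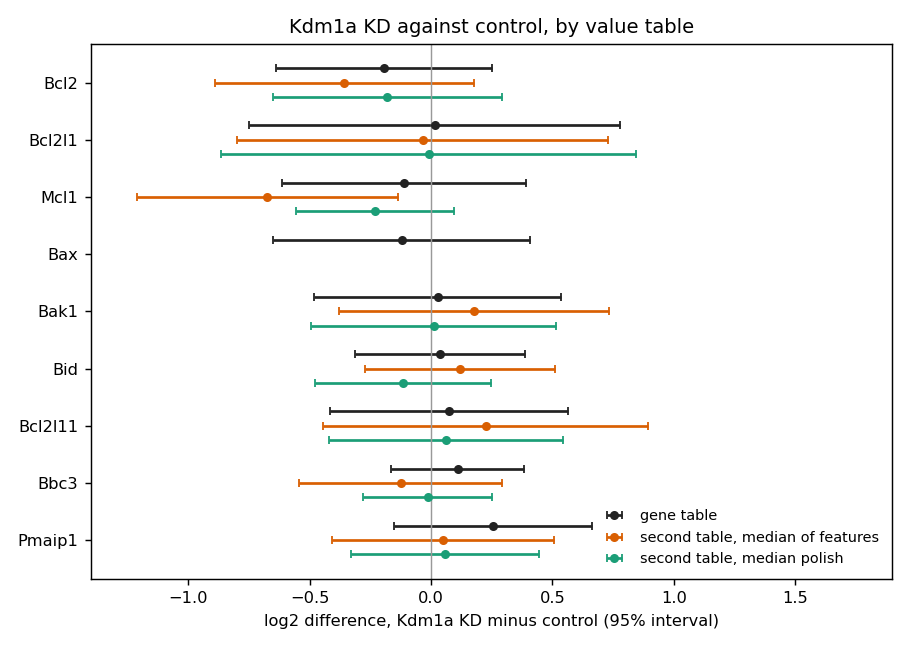
Log2 difference of each gene, Kdm1a KD minus control, with limma's 95% interval, in the gene table and in 2 summaries of the second table's features. Every interval includes 0 except that of the Mcl1 feature median, at -0.67 with an adjusted p of 0.959, and Bax had no named feature.

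By role, the mean deviation from each gene's own average was -0.05 in Kdm1a KD and 0.05 in control for the 3 prosurvival genes. For the 2 effectors it was -0.02 in Kdm1a KD and 0.02 in control. For the 4 BH3-only genes it was 0.06 in Kdm1a KD and -0.06 in control. These differences are smaller than those between arrays of 1 group: the prosurvival mean was 0.22, -0.36 and -0.01 on the KD arrays and 0.37, -0.18 and -0.04 on the control arrays.

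In the gene table most of the family differed between the arrays numbered 1 and the other 4. For 7 of the 9 genes (77.8%) both arrays numbered 1 lay outside the range of the other 4, against 28.0% of all rows (8.65% above and 19.4% below) and 38.3% of rows above the median level, where all 9 genes lie. Bcl2, Bcl2l1, Bcl2l11 and Pmaip1 were above the other 4 and Bax, Bak1 and Bid below. Mcl1 and Bbc3 lay inside the range. In the second table the pattern was found in 3 of 8 genes (37.5%), Bcl2l1, Bak1 and Bcl2l11, by the median of features and by median polish, against 27.5% of named genes by the median. Bcl2, Bid and Pmaip1 lay inside the range there. By the median, the log2 difference of the arrays numbered 1 from the other 4 was 0.13 for Bid and -0.22 for Pmaip1, both opposite in sign to the gene table. Bcl2l1 averaged 8.04 on the arrays numbered 1 and 7.23 on the other 4, a 1.75-fold difference. A difference at least as large in size was measured in 3.26% of all rows. Bax averaged 9.98 on the arrays numbered 1 and 10.52 on the other 4, and Bak1 averaged 8.26 on the arrays numbered 1 and 8.78 on the other 4. Bcl2l11 averaged 6.20 on the arrays numbered 1 and 5.82 on the other 4. These differences are descriptions of 2 arrays against 4 and were not tested.

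**Figure D3:**
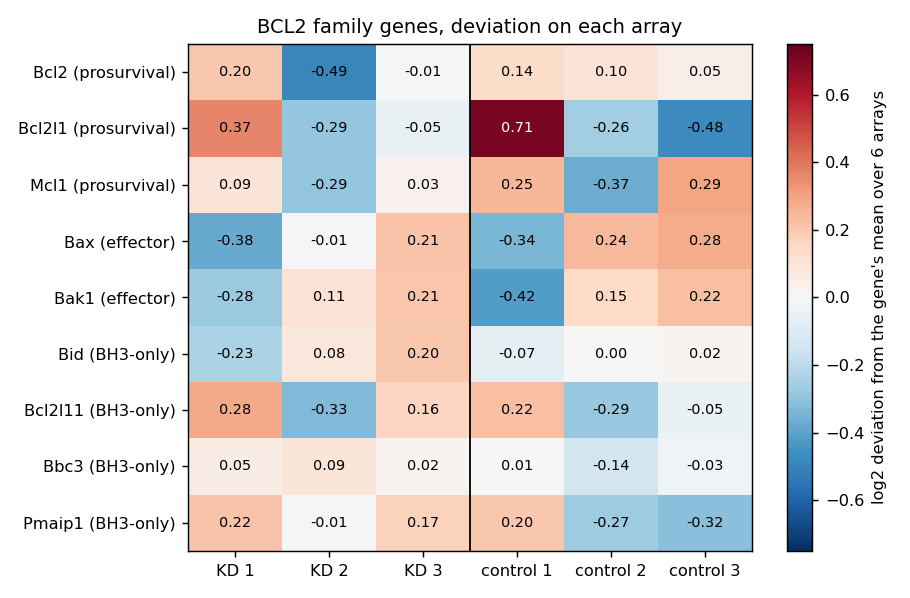
Deviation of each gene's log2 value from its mean over the 6 arrays, with KD arrays left of control arrays. The columns KD 1 and control 1 deviate in the same direction in every gene, with Bcl2l1 at 0.37 and 0.71 and Bax at -0.38 and -0.34. In 7 genes both columns lie outside the range of the remaining arrays, but not in Mcl1 and Bbc3.

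Some markers of the leukaemia cells varied with the same arrays. Of the 10 measured genes in a list of 11 blast and myeloid markers, 3 lay above the other 4 on both arrays numbered 1 and 3 below, where 27.5% of named genes lay outside in either direction. The list's mean log2 level was 7.984 to 7.996 on the arrays numbered 1 and 8.19 to 8.40 on the other 4. Kit, the stem cell factor receptor, was named after its values were seen. It measured 5.14 and 5.36 on KD and control replicate 1, and 7.22 to 7.86 on the other 4 arrays. Itgam, a marker of mature myeloid cells also named after its values were seen, averaged 0.74 log2 units higher on the arrays numbered 1. The other genes above were Csf1r (0.41) and Ptprc (0.24), and the others below Mpo (-0.98) and Meis1 (-0.79). Spi1 (-0.33), Prtn3 (0.02), Cebpa (0.06) and Hoxa9 (-0.04) lay inside the range. Kit had the largest difference of the list, -2.275, and weighs on the list's mean. The part of these markers in the BCL2 family pattern was not tested, and in bulk samples fewer cells of a type cannot be told apart from less RNA per cell. Between the groups the list's mean was 7.984 to 8.32 in Kdm1a KD and 7.996 to 8.398 in control.

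Markers of other cell types are given as list means on the log2 scale. Without detection calls their distance from background was not measured. The mean was 4.48 to 4.63 in Kdm1a KD and 3.96 to 4.50 in control for 4 of 5 T cell markers. For 4 of 5 B cell markers it was 4.86 to 5.05 in Kdm1a KD and 4.69 to 4.98 in control. Within that list Cd79b, a chain of the B cell receptor, averaged 7.51 in Kdm1a KD and 7.67 in control, while Cd79a, its partner chain, averaged 4.06 in Kdm1a KD and 3.65 in control. Both were named after their values were seen. For 5 of 5 stromal markers it was 4.87 to 5.12 in Kdm1a KD and 4.55 to 5.01 in control. A single erythroid marker was measured, Klf1, at 3.67 to 4.35 in Kdm1a KD and 3.66 to 4.32 in control.

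Pearson's r describes which genes moved together over the 6 arrays, with no test, because the arrays numbered 1 lie apart. Bax was most like Bak1 at r = 0.95, and r = 0.813 over the 4 arrays left without number 1. Bcl2l1 was least like Bak1 at r = -0.944, and this did not hold without number 1 (r = -0.0854, 4 arrays). Bcl2l1 was most like Pmaip1 at r = 0.802, and r = 0.837 over the other 4 arrays. The closest of all 23770 rows to each gene reached r = 0.983 to 0.999.

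Promoters are shown for the 4 genes with the greatest difference between the arrays numbered 1 and the other 4 in the gene table. Windows of RefSeq's table for GRCm38.p6 were used, with those on 1 chromosome left out of the members' set. The 13 starts kept cover 8 of the 9 genes, all but Pmaip1. Each window spans 250 bases before to 50 after the start. Capitals mark the GC box, the motif GGGCGG on either strand, which SP1 family factors bind. Where a gene has several starts, 1 is shown, for Bcl2l1 the start farthest upstream and for Bcl2l11 the first of 2. The Bcl2l1 window is chr2:152831679-152831978 (minus strand), that of Bcl2l11 chr2:128125788-128126087 (plus strand), that of Bax chr7:45466849-45467148 (minus strand) and that of Bak1 chr17:27028578-27028877 (minus strand).
Bcl2l1: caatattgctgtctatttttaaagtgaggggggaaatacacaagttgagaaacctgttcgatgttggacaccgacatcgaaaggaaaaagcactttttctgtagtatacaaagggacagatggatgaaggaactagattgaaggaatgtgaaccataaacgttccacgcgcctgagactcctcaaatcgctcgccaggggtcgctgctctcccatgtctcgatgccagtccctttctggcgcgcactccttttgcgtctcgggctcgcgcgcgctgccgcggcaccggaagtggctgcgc
Bcl2l11: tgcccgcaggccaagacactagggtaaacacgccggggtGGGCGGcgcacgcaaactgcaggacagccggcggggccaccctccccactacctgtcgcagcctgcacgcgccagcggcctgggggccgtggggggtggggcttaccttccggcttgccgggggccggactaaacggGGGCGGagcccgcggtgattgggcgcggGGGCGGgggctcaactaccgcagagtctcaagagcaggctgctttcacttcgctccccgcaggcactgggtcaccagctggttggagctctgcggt
Bax: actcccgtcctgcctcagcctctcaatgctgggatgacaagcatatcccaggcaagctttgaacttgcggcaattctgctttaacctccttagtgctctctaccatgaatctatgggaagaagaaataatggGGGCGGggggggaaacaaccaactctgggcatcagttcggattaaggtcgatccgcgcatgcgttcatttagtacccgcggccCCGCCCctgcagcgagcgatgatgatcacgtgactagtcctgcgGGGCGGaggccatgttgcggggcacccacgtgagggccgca
Bak1: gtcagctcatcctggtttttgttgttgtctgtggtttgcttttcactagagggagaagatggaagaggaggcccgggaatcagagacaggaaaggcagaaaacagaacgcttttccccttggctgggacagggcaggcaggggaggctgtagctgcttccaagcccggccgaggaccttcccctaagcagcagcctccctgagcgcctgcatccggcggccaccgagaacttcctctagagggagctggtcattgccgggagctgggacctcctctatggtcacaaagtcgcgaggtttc
The Bax and Bcl2l11 windows hold 3 GC boxes each, and the Bcl2l1 and Bak1 windows hold 0. A GC box stands in 35.7% of the 32851 promoter windows of this length. The Bax window holds 1 half-site of the p53 consensus (overlapping matches counted), which 8.36% of the windows hold and which the other 12 starts lack. CpG dinucleotides number 22 in the Bcl2l1 window, 27 in Bcl2l11, 19 in Bax and 11 in Bak1, against a median of 7 over all windows. The TATA box TATAAA is in 0 of the 13 windows and in 13.6% of all. These are matches of letters and say nothing of binding.

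The array features of the genes varied in both directions. Among the features of the second table, 71 carried the symbol of 1 of 8 family members, and limma called 0 of them, as it called 0% of all 267824 features at an adjusted p of 0.05. At an unadjusted p under 0.05 stood 3 features (4.23%), against 5.30% of all features. They belong to Mcl1, Bid and Pmaip1, 1 each, and were picked out after their values were seen. The groups did not overlap in 2 features (2.82%), against 10.9% of all (4.79% with Kdm1a KD above and 6.08% below). In both of them Kdm1a KD was lower.

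The Bid feature 4512043 measured 5.26, 4.86 and 5.09 on the KD arrays, against 5.62, 5.88 and 6.16 on the control arrays. All KD arrays were lower, but the log2 difference of -0.82 did not pass (limma adjusted p = 0.908), and 4 of the 9 Bid features were higher in Kdm1a KD. The Mcl1 feature 4401251 measured 6.69, 6.21 and 6.86 on the KD arrays, against 6.95, 7.33 and 7.503 on the control arrays. Its log2 difference of -0.67 did not pass either (limma adjusted p = 0.908). It is the middle feature of 7 by level on every array, and so gave the Mcl1 median difference of -0.67 (limma adjusted p = 0.959). Of the 7 Mcl1 features, 5 were lower in Kdm1a KD, and median polish, the summary step of RMA, gave -0.23 (limma adjusted p = 0.905).

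The Pmaip1 feature 4716576 measured 6.14, 6.10 and 5.37 on the KD arrays, against 5.68, 4.17 and 4.86 on the control arrays. It was higher in Kdm1a KD by 0.96 on the log2 scale and did not pass (limma adjusted p = 0.908). KD replicate 3 lay below control replicate 1, so the groups overlapped, and 2 of the 5 Pmaip1 features were lower in Kdm1a KD.

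**Figure D4:**
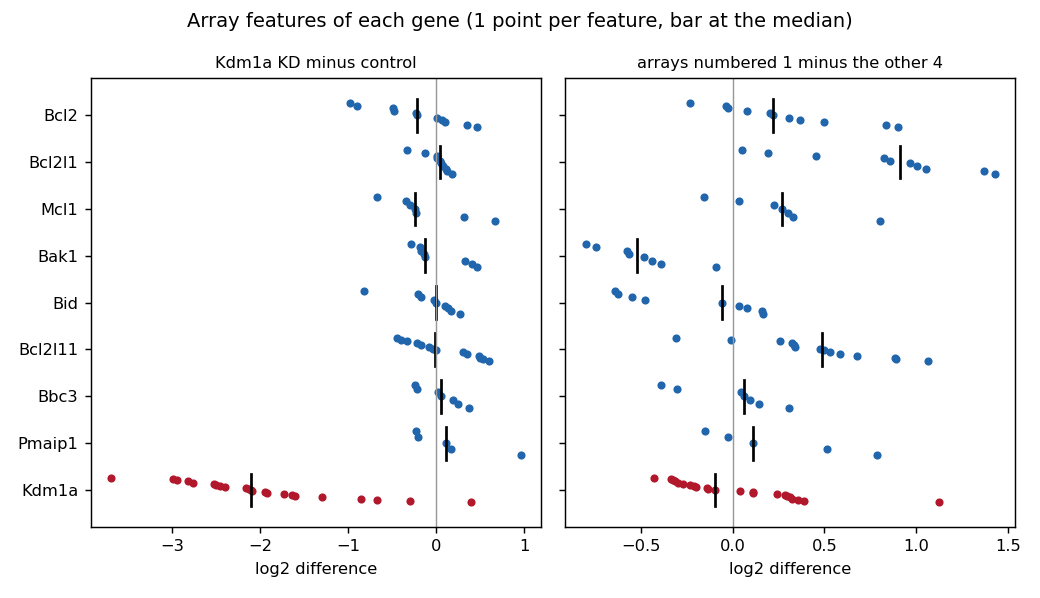
Log2 difference of single array features for 8 BCL2 family genes (blue) and Kdm1a (red), as Kdm1a KD minus control on the left and as the arrays numbered 1 minus the other 4 on the right. Bcl2l1 features gather near 0 on the left, between -0.33 and 0.18, and 8 of 10 have both arrays numbered 1 above the other 4, while Kdm1a features reach -3.69 on the left.

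Over the 71 features, both arrays numbered 1 lay outside the other 4 in 24 (33.8%), against 24.0% of all features. Both arrays numbered 1 lay above the other 4 in 8 of 10 Bcl2l1 features, against 8.86% of all features. They lay below the other 4 in 5 of 8 Bak1 features, against 15.1% of all features. They lay above in 3 of 11 Bcl2 features, 3 of 14 Bcl2l11 features, 1 of 7 Mcl1 features and 1 of 5 Pmaip1 features, and below in 3 of 9 Bid features. Features of 1 gene share its RNA and are not replicates. Bbc3 had 0 of 7 features on either side. For Bbc3 the feature median was 6.05, 6.37 and 6.01 on the KD arrays, against 6.33, 6.16 and 6.30 on the control arrays. The log2 difference was -0.13 by the median and -0.01 by median polish (limma adjusted p = 0.969 and 0.989), so the separation of the groups in the gene table was not found there.

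Other genes of the cell death machinery were read from the feature medians of the second table. Of 13 measured members of a list of 16 further BCL2 family genes, 0 rose and 0 fell in limma at the adjusted threshold, where 0.00529% of the named genes did, and the lowest adjusted p was 0.959. The median log2 difference was -0.03, against -0.04 over all named genes. Bcl2l10, a prosurvival relative, averaged 4.40 ± 0.09 in Kdm1a KD and 4.02 ± 0.45 in control (SD, n = 3 each). Bok, an effector relative, measured 6.22, 6.20 and 6.11 on the KD arrays, against 6.09, 5.29 and 6.06 on the control arrays. Its groups did not overlap, as in 756 of the 18916 named genes with Kdm1a KD above, and it did not pass (limma adjusted p = 0.959). Bik, a BH3-only gene, averaged 5.83 ± 0.12 in Kdm1a KD and 6.04 ± 0.16 in control (SD, n = 3 each).

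The genes downstream of the mitochondria likewise gave no call. Of 14 measured genes in a list of 17 for cytochrome c signalling, caspases and their inhibitors, 0 rose and 0 fell, against 0.00529% of named genes called. By value 12 were lower and 2 higher, with a median log2 difference of -0.09, against -0.04 over all named genes. Endog, a mitochondrial nuclease, averaged 6.24 ± 0.27 in Kdm1a KD and 6.80 ± 0.74 in control (SD, n = 3 each). Htra2, a protease that antagonises caspase inhibitors, averaged 8.77 ± 0.35 in Kdm1a KD and 9.18 ± 0.65 in control (SD, n = 3 each). Xiap, a caspase inhibitor, averaged 6.05 ± 0.28 in Kdm1a KD and 6.32 ± 0.19 in control (SD, n = 3 each). None of the 3 passed (limma adjusted p = 0.959 each). Their log2 differences by median polish were -0.23 for Endog, 0.04 for Htra2 and -0.22 for Xiap. Htra2 thus turned higher, while Diablo (-0.006) and Birc2 (-0.13) turned lower.

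Of the 9 death receptor genes, all measured, 0 rose and 0 fell, against 0.00529% of named genes called. By value 7 were lower and 2 higher, with a median log2 difference of -0.26, against -0.04 over all named genes. By median polish Tnfrsf10b and Fadd turned higher (0.20 and 0.06) and Fasl lower (-0.02), while the rest kept their direction. The groups did not overlap in 1 gene, Casp8, with Kdm1a KD lower, as in 6.04% of named genes. Its log2 difference was -0.14 (limma adjusted p = 0.964), and it was named after its values were seen. Fas, a death receptor, measured 4.89, 5.43 and 5.24 on the KD arrays, against 5.38, 6.04 and 5.97 on the control arrays. KD replicate 2 lay above control replicate 1, so the groups overlapped, and the log2 difference of -0.61 did not pass (SE 0.24, limma adjusted p = 0.959). Cflar, which blocks caspase 8, averaged 6.95 ± 0.32 in Kdm1a KD and 7.45 ± 0.35 in control (SD, n = 3 each), and Fasl, the ligand of Fas, averaged 3.28 ± 0.33 in Kdm1a KD and 2.82 ± 0.27 in control (SD, n = 3 each). Of 14 measured genes in a list of 15 regulators of the family, 1 fell, Kdm1a itself, and 0 rose. Kdm1b, the paralogue of Kdm1a, averaged 5.39 ± 0.30 in Kdm1a KD and 5.88 ± 0.17 in control (SD, n = 3 each, limma adjusted p = 0.959). Its groups did not overlap, as in 1142 of the 18916 named genes with Kdm1a KD below (limma unadjusted p = 0.0467). Fbxw7, part of a ligase that degrades MCL1, averaged 7.06 ± 0.40 in Kdm1a KD and 7.32 ± 0.25 in control (SD, n = 3 each).

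**Figure D5:**
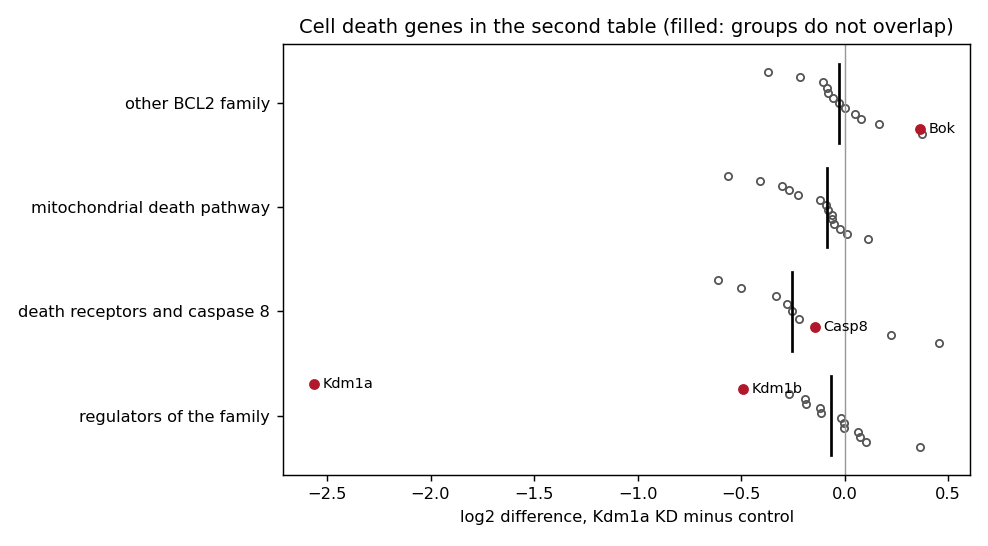
Log2 difference, Kdm1a KD minus control, of each measured gene in 4 lists of cell death genes, with a bar at each list's median. Filled points mark genes whose groups do not overlap, and Kdm1a at -2.56 is the single gene past the threshold.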

How the data were processed

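The deposited log2 values were made by the authors with RMA, which corrects background, equalises arrays and summarises probes, per the submitters' processing notes. One file holds a value per Ensembl gene and array, the other a value per array feature. The RMA software, annotation release and build are not stated in these sources. The log2 scale was read from the values, 0.93 to 12.9 in the gene table. No table used here pairs the Ensembl rows with symbols, so the names of the 9 members rest on the list that set names and identifiers in the same order. Features were named from GEO's platform annotation (242247 with 1 symbol, 2077 with several, 23500 with none), with 3003 symbols updated through RefSeq synonyms, and a gene's value was the median of its features.

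Differences, as Kdm1a KD minus control, were tested two-sided with lmFit and eBayes of limma 3.58.1 (R 4.3.3), adjusted by Benjamini-Hochberg over each whole table at a threshold of 0.05, with exact permutation tests over arrays in scipy 1.17.1. The fit was tested on simulated data of independent arrays. These had no shared animal and no effect of array number, so the simulation does not cover either. The number of arrays limits the precision, and there are no detection calls. Members and lists were chosen with earlier results of these data known. Named are all 9 members and, per list of cell death genes, the 3 genes with the smallest p. Others, such as Kit, Itgam and single features, were picked after their values were seen.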

Additional observations from a re-analysis of the deposited data

How the results depend on the processing

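The count of 0 BCL2 family genes past the threshold was also 0 in the 18 alternatives run in limma: the replicate block (adjusted p 0.616 to 0.983), the block as a random effect, median centring, quantile normalization, the 25% and 50% filters on low values, the trended robust prior, array weights, a threshold of 0.1, each array left out, both arrays numbered 1 left out, and both summaries of the second table. Family features called numbered 0 in those of these settings that apply to features, but the main fit called 0 of the Kdm1a features too. The count of all rows called, 1 as reported, was 0 with the replicate block, after quantile normalization and without both arrays numbered 1, 0 to 0 with each array left out, and 2 by median polish of the second table, chosen after seeing the data (Kdm1a and Grsf1). Genes whose groups do not overlap numbered 0 after quantile normalization, 1 to 3 with each array left out and 5 without both arrays numbered 1, where 41.8% of all rows did not overlap. Same-numbered arrays were treated as unpaired in the main fit, since no label says that the number marks an animal. Their deviations from the group means correlated at 0.543, 0.0806 and 0.251 for numbers 1, 2 and 3. The deviations of a group's 3 arrays cancel out, so these values depend on each other. Correlations of unlike numbers are not given, so the values cannot show what arrays of 1 number share. The unpaired fit leaves any effect shared by a number in the spread.

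Pmaip1 kept its direction in the 12 alternatives that can change the estimate, and the other 8 genes turned in 1 to 6 of theirs. The second table put Pmaip1 at only 0.05 by the median and 0.06 by median polish, against 0.25 in the main fit. The alternatives reuse the same arrays, so their directions are not independent, and the cause was not tested. Log2 differences changed sign as follows. Median centring gave -0.02005 for Bcl2l1 and -0.00745 for Bak1, quantile normalization 0.0041 for Mcl1, and array weights -0.0722 for Bak1. Without both arrays numbered 1, Bak1 was at -0.02897. The second table's medians gave -0.03464 for Bcl2l1 and -0.1254 for Bbc3, and median polish -0.0093 for Bcl2l1, -0.1153 for Bid and -0.01398 for Bbc3. With each array left out, the range was -0.35 to 0.0013 for Bcl2, -0.22 to 0.38 for Bcl2l1, -0.33 to 0.0064 for Mcl1, -0.3221 to 0.03902 for Bax, -0.17 to 0.17 for Bak1, -0.05743 to 0.1618 for Bid, -0.05058 to 0.2576 for Bcl2l11, 0.07 to 0.14 for Bbc3 and 0.16 to 0.42 for Pmaip1.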

Other observations

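Some further cell death genes differed with the array number. Bnip3 and Bnip3l, relatives of the family that act in the removal of mitochondria, were high on both arrays numbered 1. Bnip3l measured 7.28 and 7.27 on KD and control replicate 1, and 5.87 to 6.602 on the other 4 arrays. Ddit3, a stress-induced transcription factor, was low on the same arrays, at 7.22 and 7.47, against 7.84 to 8.71 on the other 4. Among the 13 further family genes 4 lay above and 4 below the other 4 on both arrays numbered 1, where 27.5% of named genes lay outside in either direction. The other lists had fewer: 1 above and 3 below of 14 mitochondrial death pathway genes, and 0 above and 1 below of 9 death receptor genes. Of the 14 regulators, the list that holds Ddit3, 1 lay above and 3 below. Bnip3, Bnip3l and Ddit3 were picked after their values were seen, and no test was made.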
